A study of Arabidopsis thaliana with 18 samples.

Results

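The morning side of the Arabidopsis circadian clock, 7 MYB-like transcription factor genes (CCA1, LHY, RVE1, RVE2, RVE4, RVE7 and RVE8) and the coactivator genes LNK1, LNK2 and LNK3, was followed in RNA-seq of whole seedlings. They were identified in the tables by locus identifier and all 10 were present, with 23 of the 32811 transcripts and 10 of the 24953 genes measured. The series compared SOB3-D with sob3-6 at ZT4, ZT9 and ZT24 in short days, to ask how SOB3 and related AHL proteins, a family of AT-hook DNA-binding proteins that limit hypocotyl elongation, affect transcript levels over the day. ZT counts the hours since dawn, so that ZT4 fell in the light period, ZT9 shortly after dusk and ZT24 at the next dawn.

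Each of the 6 groups held 3 biological replicates, each a pool of whole seedlings. Both lines are in the Col-0 background and both carry the activation-tagged, overexpressed copy of SOB3. In SOB3-D the protein is intact, while in sob3-6 the same overexpressed copy has a missense change in its AT-hook. No wild-type libraries were among the 18, so every genotype difference below is between these 2 lines, each a single mutant allele. Seedlings were 5 days old at ZT4 and ZT9 and 6 days old at ZT24, so age and time of day cannot be told apart for ZT24. SOB3 itself measured 168 to 191 CPM in SOB3-D and 227 to 272 CPM in sob3-6 at ZT4, where CPM is the read count scaled to the mapped reads of the library. It measured 133 to 157 and 237 to 248 CPM at ZT9, and 211 to 235 and 314 to 331 CPM at ZT24. The SOB3 transcript was thus higher in sob3-6 at each time, by 0.44, 0.75 and 0.55 on the log2 scale (limma, adjusted p = 0.0395, 0.00167 and 0.00182). The missense allele is still transcribed, so this level does not check the genotype labels. Libraries held 6012747 to 11076919 mapped reads (median 8199501.5), and 1 read was worth 0.0903 to 0.166 CPM. A count of 0 allows up to 3 reads, or 0.271 to 0.499 CPM, for counting error only.

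CCA1 and LHY encode closely related single-MYB repressors that accumulate around dawn and hold down evening genes by binding the evening element in their promoters. RVE4 and RVE8 belong to the same family but activate evening genes through the same element, and LNK proteins, which do not bind DNA themselves, are brought to promoters by RVE proteins and help them activate targets such as PRR5 and TOC1. RVE1, RVE2 (CIRCADIAN 1) and RVE7 (EARLY-PHYTOCHROME-RESPONSIVE 1) are clock-regulated output factors, and RVE1 links the clock to auxin synthesis and daytime growth.

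Because these factors read or carry short promoter motifs, the windows from 250 bases before to 50 bases after each annotated gene start (TAIR10.1 assembly, RefSeq) were searched on both strands for 3 motifs. The G-box, CACGTG, which PIF and HY5 type factors recognise, was found in 8 of the 10 windows, against 7.68% of the windows of 27443 protein-coding genes. RVE4 and RVE7 were the members without it. The evening element, AAAATATCT, was found in the RVE7 window only, starting 50 bases before the start, against 2.82% of all windows, and the CCA1 binding site, AAAAATCT, in the RVE2 window only, against 7.88%. None of the 3 motifs contains another. These are letter matches, with no binding measured here. The 30-base stretches around the G-boxes are shown so that the shared core, in capitals, can be set against flanks that differ. Each reads 5′ to 3′ along the gene's own strand.
CCA1, chr2:19245386-19245415, plus strand, G-box starting 193 bases before the start: tagtgtatcagaCACGTGtcgacaaactgg
LHY, chr1:37934-37963, minus strand, 80 bases before: ctacaatatcacCACGTGtcgatctgcgat
RVE1, chr5:5693086-5693115, minus strand, 111 bases before: gagaaagagcgaCACGTGgcaaagatggac
RVE2, chr5:14753234-14753263, minus strand, 163 bases before: gaagaaatcctcCACGTGtcattagcatct
RVE8, chr3:2946238-2946267, plus strand, 11 bases after: actacaagtctaCACGTGcttcaagcttga
LNK1, chr5:25676808-25676837, minus strand, 2 bases before: tgatttagttgcCACGTGttgatatcatgg
LNK2, chr3:20179029-20179058, minus strand, 24 bases after: ccactcgtttggCACGTGaccatttcatac
LNK3 first G-box, chr3:3923332-3923361, plus strand, 171 bases before: ctaatcacatgcCACGTGtcttattctcca
LNK3 second G-box, chr3:3923362-3923391, plus strand, 141 bases before: caaagagagtgtCACGTGtgcctagatatc

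CCA1 is the member that limma called between the lines at ZT4, and RVE7 is the member with the evening element, so the 250 bases before the start of each are printed in full, with the motif in capitals. The CCA1 stretch is chr2:19245341-19245590, plus strand, and the RVE7 stretch is chr1:6308244-6308493, minus strand.
CCA1: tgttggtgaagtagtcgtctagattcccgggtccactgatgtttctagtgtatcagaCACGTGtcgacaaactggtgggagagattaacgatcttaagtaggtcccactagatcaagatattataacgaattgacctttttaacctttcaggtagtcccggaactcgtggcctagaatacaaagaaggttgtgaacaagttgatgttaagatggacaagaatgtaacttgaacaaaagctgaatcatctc
RVE7: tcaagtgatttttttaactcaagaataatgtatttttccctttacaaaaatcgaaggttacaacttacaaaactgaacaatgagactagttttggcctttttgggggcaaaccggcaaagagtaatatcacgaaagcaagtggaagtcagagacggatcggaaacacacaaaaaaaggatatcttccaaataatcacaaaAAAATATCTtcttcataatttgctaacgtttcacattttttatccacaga

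**Figure D1:**
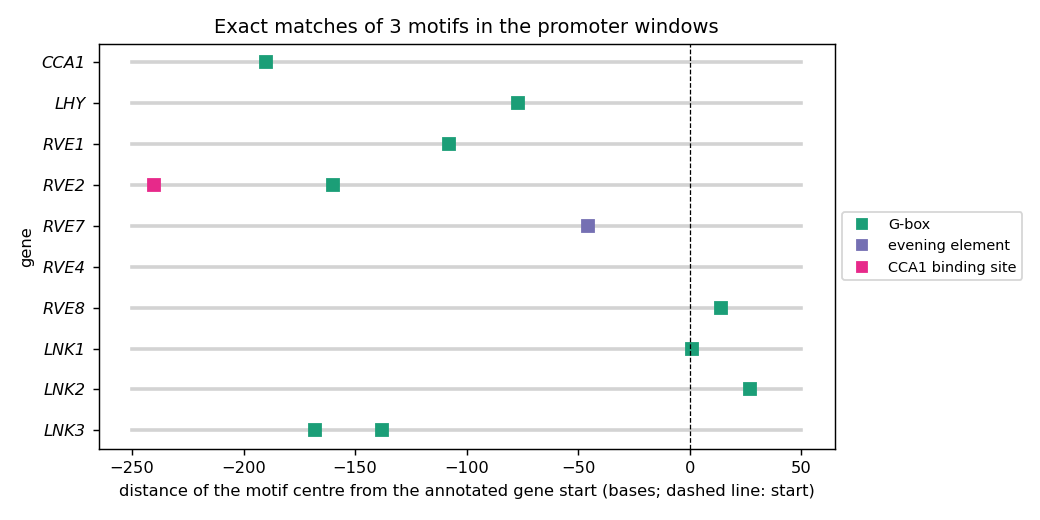
Positions of exact matches of the G-box, the evening element and the CCA1 binding site (squares) in the promoter windows of the 10 genes; the x axis is the distance of the motif's centre from the annotated gene start in bases, and each grey line is a window from 250 bases before to 50 bases after the start. A G-box is present in 8 windows, LNK3 holds 2 of them, and the RVE4 window holds none of the 3 motifs.

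Every member was called between ZT4 and ZT9 in both lines. All comparisons used log2(CPM + 0.5) with limma, the time contrasts in a fit of all 18 libraries, and a gene was called at an adjusted p under 0.05 over all transcripts tested. Between ZT4 and ZT9, 9 of 10 members fell and RVE2 rose, in both lines. Over all nuclear genes 12.5% fell and 21.3% rose in SOB3-D, and 9.34% fell and 16.4% rose in sob3-6. Between ZT9 and ZT24, 9 members rose in SOB3-D and 8 in sob3-6, and no member fell, also at an unadjusted p under 0.05. Over all nuclear genes 18.3% rose and 19.0% fell in SOB3-D, and 12.3% rose and 13.6% fell in sob3-6. At ZT24 against ZT4, 8 members were higher and LNK1 and RVE7 were lower in both lines. There 22.0% of all nuclear genes were higher and 15.1% lower in SOB3-D, and 14.9% and 10.4% in sob3-6. The median log2 change of the members was -3.47 from ZT4 to ZT9 in SOB3-D and -3.04 in sob3-6, against 0.08 and 0.06 over all nuclear genes tested. These contrasts share libraries with each other, since each group enters 2 of the 3. Some smaller changes rested on single libraries. The fall of RVE7 from ZT4 to ZT24 in SOB3-D lost its call without ZT4 replicate 2 or 3 or ZT24 replicate 1 (adjusted p up to 0.109), and its fall from ZT4 to ZT9 in sob3-6 without ZT4 replicate 3 or ZT9 replicate 1 (up to 0.106). In sob3-6 the lower RVE7 levels at ZT9 and at ZT24 than at ZT4 also lost their calls when only the libraries of the groups compared were fitted (adjusted p = 0.0593 and 0.0507). The genotype differences of RVE7, given below, were of the size of its time changes in sob3-6, which were -0.80 from ZT4 to ZT9 and -0.91 from ZT4 to ZT24 on the log2 scale. The lower level of LNK1 at ZT24 than at ZT4 in sob3-6 lost its call without ZT4 replicate 3 or ZT24 replicate 2 or 3 (up to 0.0942).

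The members fell into 3 shapes, which the plot of levels by library shows. CCA1, LHY, RVE1, RVE4, RVE8, LNK2 and LNK3 had their highest mean at ZT24 and their lowest at ZT9 in both lines. LNK1 and RVE7 had their highest mean at ZT4. RVE2 had its lowest mean at ZT4 and differed little between ZT9 and ZT24, with a log2 change of -0.34 ± 0.20 (SE, adjusted p = 0.195) in SOB3-D and 0.34 ± 0.20 (adjusted p = 0.249) in sob3-6. Without sob3-6 ZT9 replicate 3 the latter was 0.59 and was called (adjusted p = 0.0276).

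**Figure D2:**
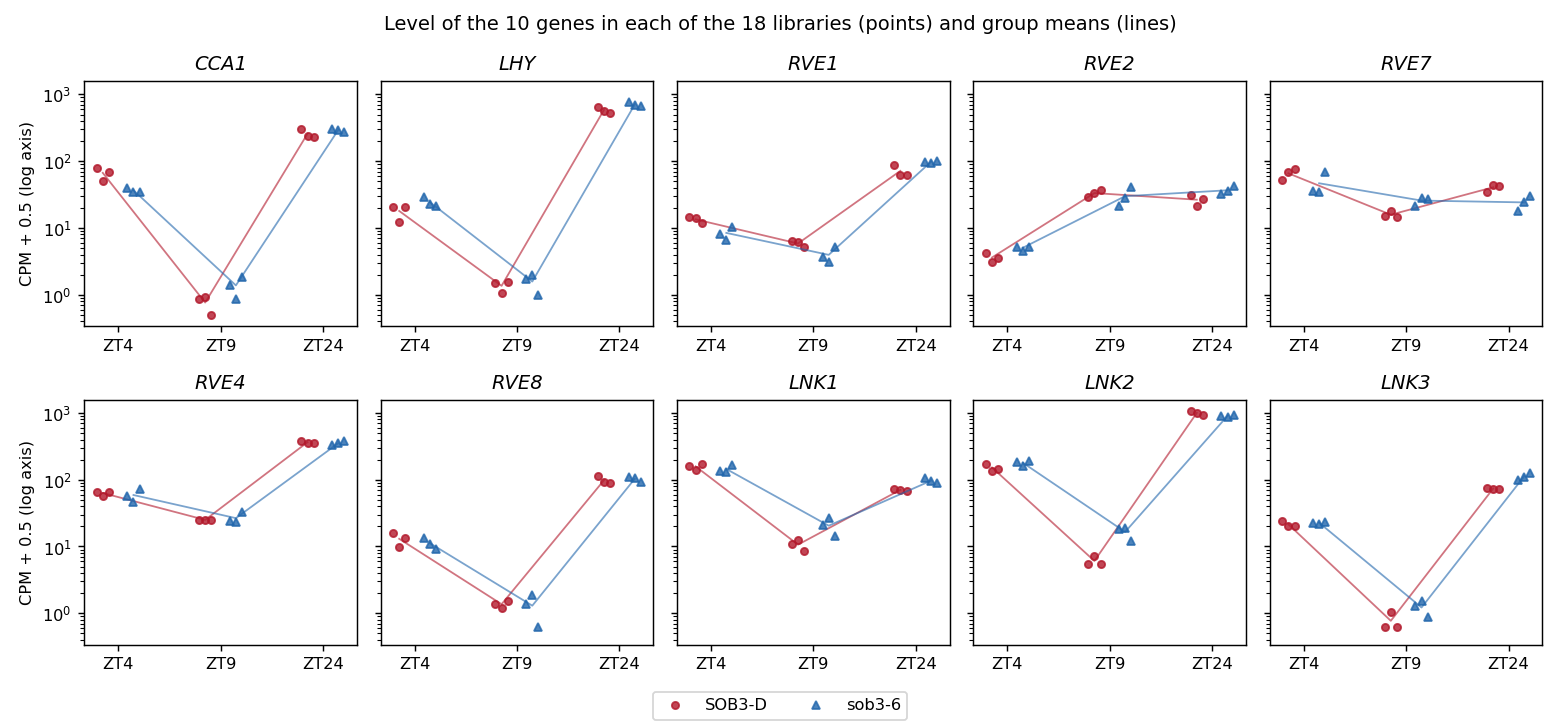
Level of each of the 10 genes in each of the 18 libraries, as CPM + 0.5 on a log axis, by ZT; circles are SOB3-D libraries, triangles are sob3-6 libraries and the lines join the means of the 3 replicates. CCA1, LHY, RVE8 and LNK3 lie at or under 1.50 CPM in every library at ZT9 and rise to at least 72.7 CPM at ZT24, whereas RVE2 is lowest at ZT4.

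CCA1 (AT2G46830, chr2:19245591-19248915, plus strand) was the member with the clearest difference between the lines at ZT4. Its level in the light period was 79.3, 50.8 and 69.0 CPM in the 3 SOB3-D replicates and 39.4, 34.7 and 34.5 CPM in the 3 sob3-6 replicates. Every sob3-6 library lay below every SOB3-D library. The mean was 66.4 ± 14.4 CPM (SD, n = 3) in SOB3-D and 36.2 ± 2.75 CPM in sob3-6, a ratio of 0.545. The log2 difference, sob3-6 over SOB3-D, was -0.84 ± 0.16 (SE, adjusted p = 0.0140), lower in sob3-6 in 3 of 3 replicate pairs. With limma on the 6 libraries of that time it was the only member called at ZT4, where 2.46% of all nuclear genes were called lower and 4.29% higher in sob3-6. No member was called higher by limma, edgeR or DESeq2, and 1 had an unadjusted p under 0.05 in that direction. A second member was called lower in 4 alternatives, RVE1 by DESeq2 (adjusted p = 0.0403), by edgeR's exact test (0.0160) and in the fit of all 18 libraries (0.0206), and RVE7 with the replicate block (0.04999). Without SOB3-D replicate 3 the difference was -0.80 and its adjusted p = 0.0607, and over all alternatives the adjusted p ranged from 6.76e-06 to 0.0607.

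By ZT9 CCA1 was almost absent. The SOB3-D replicates held 0.37, 0.42 and 0 CPM, 6 reads in all, and the sob3-6 replicates 0.89, 0.38 and 1.37 CPM, 22 reads in all. The lines overlapped, and the log2 difference of 0.84 ± 0.40 (adjusted p = 0.235) was not called on the 6 libraries of that time, but was in the fit of all 18 libraries (adjusted p = 0.0287). At ZT24 the SOB3-D replicates reached 306, 240.3 and 228 CPM and the sob3-6 replicates 308, 294 and 278 CPM, again overlapping, with a log2 difference of 0.20 ± 0.11 (adjusted p = 0.339). Pooled over replicates, CCA1 was 978 times as high at ZT24 as at ZT9 in SOB3-D (exact 95% interval 449 to 2666, counting error only) and 332 times as high in sob3-6 (219 to 530).

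The change of the CCA1 genotype difference from ZT4 to ZT9 was tested as an interaction and was 1.68 ± 0.35 on the log2 scale (adjusted p = 0.0186). CCA1, LNK1 and LNK2 were the members called in that direction, against 1.04% of all nuclear genes, and none was called in the other, against 0.418% (1 at an unadjusted p under 0.05). The CCA1 value rests on 28 reads at ZT9, and it was not called by edgeR's quasi-likelihood test (2.58, adjusted p = 0.0934), with a pseudocount of 0.1 CPM (2.46, adjusted p = 0.0748) or without SOB3-D ZT4 replicate 3 (1.64, adjusted p = 0.0543). Over all its alternatives the adjusted p ranged from 0.00571 to 0.0934. From ZT4 to ZT24, where both levels rest on many reads, the change was 1.04 ± 0.35 with an adjusted p = 0.124, while DESeq2 gave 1.09 with an adjusted p = 7.91e-05 and edgeR's quasi-likelihood test 1.09 with an adjusted p = 0.0186, in a range of 7.91e-05 to 0.484 over the alternatives.

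LHY (AT1G01060, chr1:33365-37871, minus strand), the partner of CCA1, was not called between the lines at any time by limma on the libraries of that time. Its ZT4 level was 20.3, 11.9 and 20.3 CPM in SOB3-D and 29.1, 22.0 and 20.6 CPM in sob3-6. The sob3-6 libraries lay just above the SOB3-D libraries, and the log2 difference of 0.46 ± 0.22 (adjusted p = 0.254) was not called, with a 95% interval from -0.03 to 0.95. At ZT9 LHY was at 0.99, 0.56 and 1.03 CPM in SOB3-D and 1.23, 1.50 and 0.50 CPM in sob3-6, and the ranges overlapped. At ZT24 the values were 659, 567 and 532 CPM in SOB3-D and 758, 684 and 667 CPM in sob3-6. The sob3-6 libraries were all higher, by 0.27 ± 0.09 on the log2 scale (adjusted p = 0.132). With the replicate number as a block that difference was called (adjusted p = 0.0107).

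The balance of this pair differed between lines at ZT4, as a description looked at after the values were seen and with no test. Per kilobase of transcript, the CCA1 level divided by the LHY level was 4.50, 4.90 and 3.91 in the SOB3-D replicates and 1.56, 1.81 and 1.93 in the sob3-6 replicates. At ZT24 LHY was the higher of the pair in every library, and the ratio was 0.534, 0.488 and 0.492 in SOB3-D and 0.467, 0.494 and 0.479 in sob3-6. The lines did not overlap at ZT4 and overlapped at ZT24.

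RVE1 (AT5G17300, chr5:5690225-5692992, minus strand) was lower in every sob3-6 library than in every SOB3-D library at ZT4 and ZT9 and higher in every one at ZT24. At ZT4 it was 14.0, 13.6 and 11.3 CPM in SOB3-D and 7.73, 6.17 and 9.92 CPM in sob3-6. At ZT9 it was 5.82, 5.61 and 4.64 CPM in SOB3-D and 3.13, 2.63 and 4.62 CPM in sob3-6. At ZT24 it was 88.4, 62.5 and 62.7 CPM in SOB3-D and 98.3, 93.9 and 101 CPM in sob3-6. By limma on the 6 libraries of each time none of the differences was called, at -0.69 ± 0.18 (adjusted p = 0.0574), -0.59 ± 0.22 (adjusted p = 0.135) and 0.47 ± 0.13 (adjusted p = 0.0610). Other fits called them. The ZT4 difference was called by DESeq2 (adjusted p = 0.0403), by edgeR's exact test (0.0160), in the fit of all 18 libraries (0.0206) and without sob3-6 replicate 3 (0.0235). The ZT9 difference was called in the fit of all 18 libraries (adjusted p = 0.0416) and without sob3-6 replicate 3 (0.0412). The ZT24 difference was called by DESeq2 (adjusted p = 0.0375), by edgeR's exact test (0.0238), with the replicate block (0.0114) and without SOB3-D replicate 1 (0.00438). The change of the RVE1 genotype difference was called in the interaction test, which does not ask whether its sign reversed. It was 1.17 ± 0.26 from ZT4 to ZT24 (adjusted p = 0.0226) and 1.06 ± 0.26 from ZT9 to ZT24 (adjusted p = 0.0288). From ZT4 to ZT24 RVE1 was the only member called, in a direction with 2.02% of all nuclear genes against 0.929% in the other, where no member had an unadjusted p under 0.05. From ZT9 to ZT24 RVE1 was called in a direction with 2.54%, and LNK2 and RVE7 in the other with 1.48%. The first call ended without SOB3-D ZT4 replicate 2, SOB3-D ZT24 replicate 2 or 3, sob3-6 ZT4 replicate 1 or 2 or sob3-6 ZT24 replicate 1 (adjusted p up to 0.0644). The second ended without any library except SOB3-D ZT9 replicate 3, SOB3-D ZT24 replicate 1 and sob3-6 ZT9 replicate 3 (up to 0.0796), and with TMM scaling (0.0502) or edgeR's quasi-likelihood test (0.0600). RVE1 shares 7.05% of its 84-base stretches with AT5G17305, which overlaps it on the opposite strand. Whether counting used strand is not given in the sources used here.

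RVE2 (AT5G37260, chr5:14751344-14753088, minus strand) ran against the other members from ZT4 to ZT9 only. It measured 2.62 to 3.74 CPM in SOB3-D and 4.07 to 4.78 CPM in sob3-6 at ZT4. It reached 29.1 to 36.3 CPM in SOB3-D and 20.5 to 40.3 CPM in sob3-6 at ZT9. At ZT24 it stood at 20.6 to 31.0 CPM in SOB3-D and 31.9 to 41.9 CPM in sob3-6. The sob3-6 libraries lay above all SOB3-D libraries at ZT4 and ZT24, without a call (0.49 ± 0.19, adjusted p = 0.174, and 0.48 ± 0.16, adjusted p = 0.112), and the ZT24 difference was called with the replicate block (adjusted p = 0.0411). The change of its genotype difference from ZT9 to ZT24 was 0.68 (adjusted p = 0.232) and was called without sob3-6 ZT9 replicate 3 (0.93, adjusted p = 0.0422).

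RVE7 (AT1G18330, chr1:6305814-6308243, minus strand) must be read with a near-identical copy. Of its 84-base stretches, 45.5% also occur in the genes AT3G10113 and AT3G10110 on chromosome 3, and a read with equal hits on them adds to each count. RVE7 was 52.0, 68.6 and 75.2 CPM in SOB3-D and 35.4, 34.6 and 68.7 CPM in sob3-6 at ZT4, where the lines overlapped through sob3-6 replicate 3. At ZT9 it was 14.6, 17.4 and 13.9 CPM in SOB3-D and 21.0, 28.1 and 26.6 CPM in sob3-6, all sob3-6 libraries being higher. At ZT24 it was 34.2, 44.0 and 42.5 CPM in SOB3-D and 17.2, 23.8 and 30.0 CPM in sob3-6, all sob3-6 libraries being lower.

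RVE7 rose from ZT9 to ZT24 in SOB3-D (log2 change 1.36 ± 0.23, adjusted p = 0.000142) and changed by -0.11 ± 0.23 (adjusted p = 0.779) in sob3-6. The genotype difference was 0.70 ± 0.14 at ZT9 (adjusted p = 0.0179) and -0.78 ± 0.19 at ZT24 (adjusted p = 0.0395), and its turn between those times was -1.48 ± 0.33 (adjusted p = 0.0169). The turn was not called by edgeR's quasi-likelihood test (adjusted p = 0.0536, in a range of 0.000856 to 0.0536 over the alternatives). At ZT4 the difference was -0.55 ± 0.25 (adjusted p = 0.245), called with the replicate block (adjusted p = 0.04999) and without sob3-6 replicate 3 (-0.87, adjusted p = 0.0151). Its change from ZT4 to ZT9 was 1.25 ± 0.33 (adjusted p = 0.0730), also called with the block (adjusted p = 0.00385) and without sob3-6 ZT4 replicate 3 (adjusted p = 0.00537). The ZT9 call was lost without SOB3-D replicate 1 (adjusted p = 0.0760) or replicate 3 (0.0533) or sob3-6 replicate 2 (0.0874), and in the fit of all 18 libraries (0.0544). The ZT24 call was lost in that fit (adjusted p = 0.0521) and on leaving out any of the 6 libraries but sob3-6 replicate 3, with adjusted p up to 0.136.

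The copy AT3G10113 gave the same picture at lower levels, with differences of 0.70 ± 0.16 at ZT9 (adjusted p = 0.0272) and -0.84 ± 0.17 at ZT24 (adjusted p = 0.0204). Which of the 2 loci gave the shared reads cannot be told apart from these values. RVE7 had more reads than this copy, with 350 against 198 in SOB3-D and 625 against 359 in sob3-6 at ZT9. At ZT24 it had 1047 against 607 and 618 against 338. Since a shared read counts on both, not all RVE7 reads were shared with this copy. AT3G10110 differed by -0.14 ± 0.15 at ZT9 (adjusted p = 0.638) and -0.11 ± 0.20 at ZT24 (adjusted p = 0.787).

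RVE4 and RVE8, the activators of evening genes, moved strongly with time and were not called between the lines at any time. RVE4 (AT5G02840, chr5:648648-651979, plus strand) measured 57.2 to 65.5 CPM in SOB3-D and 46.2 to 71.7 CPM in sob3-6 at ZT4. It fell to 24.4 to 24.7 CPM in SOB3-D and 22.4 to 32.1 CPM in sob3-6 at ZT9, and rose to 356 to 380.2 CPM and 327 to 373 CPM at ZT24. The ranges of the lines overlapped at each time. The 95% intervals of its genotype difference were -0.46 to 0.22, -0.25 to 0.38 and -0.21 to 0.11 on the log2 scale at ZT4, ZT9 and ZT24. RVE8 (AT3G09600, chr3:2946239-2949017, plus strand) measured 9.48 to 15.3 CPM in SOB3-D and 8.73 to 12.9 CPM in sob3-6 at ZT4. At ZT9 it had 20 reads in all in each line, at 0.70 to 1.03 CPM and 0.12 to 1.38 CPM, and at ZT24 it had 88.5 to 112 CPM and 93.3 to 109.7 CPM. The intervals of its genotype difference were -0.67 to 0.25 at ZT4, -1.14 to 0.72 at ZT9 and -0.16 to 0.31 at ZT24, the widest where reads were few.

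The LNK genes held 4 of the 7 differences called at a single time, against 4 of 11 with the replicate block and 3 of 7 in the fit of all 18 libraries. At ZT9 3 of the 9 members tested were higher in sob3-6 (LNK2, LNK1 and RVE7) and none was lower, where 6.00% of all nuclear genes were called higher and 4.03% lower. At an unadjusted p under 0.05 the lower count was 1, and the edgeR and DESeq2 tests also called none lower, while the fit of all 18 libraries called RVE1 lower. At ZT24 LNK3 and LNK1 were higher, against 4.91% of all nuclear genes, and RVE7 was lower, against 1.85%. The median difference over the members was -0.13 at ZT4, 0.17 at ZT9 and 0.23 at ZT24 on the log2 scale, against 0.04, 0.03 and 0.01 over all nuclear genes tested.

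LNK2 (AT3G54500, chr3:20175370-20179070, minus strand) was the most abundant of the group at ZT24 per kilobase of transcript, at means of 429 CPM per kb in SOB3-D and 387 CPM per kb in sob3-6, and gave the largest called genotype difference. At ZT4 it was 172, 137 and 147 CPM in SOB3-D and 186, 159 and 193 CPM in sob3-6, overlapping. At ZT9 it had fallen to 4.96, 6.74 and 5.02 CPM in SOB3-D but stood at 17.8, 18.7 and 11.6 CPM in sob3-6, every sob3-6 library being higher. At ZT24 it was 1080.4, 982 and 939.5 CPM in SOB3-D and 907, 854 and 946 CPM in sob3-6, overlapping again.

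At ZT9 LNK2 was 2.87-fold higher in sob3-6 by the means, with a log2 difference of 1.43 ± 0.21 (adjusted p = 0.00421), higher in 3 of 3 pairs. All 4 of its transcripts in the tables were called, at 1.39 to 1.44. Its difference at ZT4 was 0.24 ± 0.12 (adjusted p = 0.275) and at ZT24 -0.15 ± 0.08 (adjusted p = 0.313). The difference grew by 1.19 ± 0.21 from ZT4 to ZT9 (adjusted p = 0.00650) and shrank by -1.58 ± 0.21 from ZT9 to ZT24 (adjusted p = 0.000595). The ZT9 difference and both changes kept their call in every alternative run, with adjusted p at most 0.0276, 0.0253 and 0.00262. LNK2 overlaps AT3G54490 and the noncoding gene AT3G08405 on the opposite strand.

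LNK1 (AT5G64170, chr5:25672466-25676823, minus strand) peaked at ZT4, where it was 161, 139 and 174 CPM in SOB3-D and 133, 132 and 167 CPM in sob3-6, overlapping. At ZT9 it was 10.4, 12.1 and 7.98 CPM in SOB3-D and 20.2, 25.8 and 13.9 CPM in sob3-6. At ZT24 it was 72.7, 70.6 and 66.7 CPM in SOB3-D and 104, 94.96 and 89.8 CPM in sob3-6. All sob3-6 libraries were higher at ZT9 and ZT24.

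The LNK1 difference was -0.13 ± 0.13 at ZT4 (adjusted p = 0.584), 0.92 ± 0.23 at ZT9 (adjusted p = 0.0366) and 0.45 ± 0.08 at ZT24 (adjusted p = 0.00840). The growth from ZT4 to ZT9 was 1.05 ± 0.25 (adjusted p = 0.0411). The ZT9 call was lost on leaving out any library of that time except sob3-6 replicate 3, with adjusted p up to 0.134. The growth was lost on leaving out any of the 12 libraries it rests on except replicate 2 of SOB3-D and replicate 3 of sob3-6 at either time (adjusted p up to 0.120) and with no filter on low values (adjusted p = 0.0577). With the replicate block the changes from ZT9 to ZT24 (-0.46 ± 0.25, adjusted p = 0.399 without it and 0.0218 with it) and from ZT4 to ZT24 (0.59 ± 0.25, 0.249 without and 0.00735 with) were also called. LNK1 shares 5.90% of its 84-base stretches with AT5G64160 on the opposite strand, which differed by 0.02 ± 0.11 at ZT9 (adjusted p = 0.934).

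LNK3 (AT3G12320, chr3:3923515-3925502, plus strand) was 23.4, 19.7 and 19.8 CPM in SOB3-D and 22.4, 21.4 and 22.7 CPM in sob3-6 at ZT4. At ZT9 it nearly vanished, with 0.12, 0.56 and 0.13 CPM in SOB3-D (6 reads in all) and 0.78, 1.00 and 0.37 CPM in sob3-6 (18 reads). At ZT24 it was 74.6, 72.7 and 72.8 CPM in SOB3-D and 98.2, 109 and 125 CPM in sob3-6. Every sob3-6 library at ZT24 lay above every SOB3-D library, by 0.58 ± 0.09 on the log2 scale (adjusted p = 0.00605). At ZT9 LNK3 fell under the mean of 0.5 CPM that the test required. The pooled reads there gave a ratio of 2.76 (exact 95% interval 1.05 to 8.50, counting error only), and with no filter the log2 difference was 0.67 (adjusted p = 0.199). In the fit of all 18 libraries the same difference had an adjusted p = 0.0278, and over the alternatives that could test it the adjusted p reached 0.540.

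The ZT24 calls of LNK1 and LNK3 were lost when the spread was estimated over all 18 libraries (adjusted p = 0.146 and 0.0868, the highest of their alternatives). With the replicate number as a block 6 members were called at ZT24 in place of 3.

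**Figure D3:**
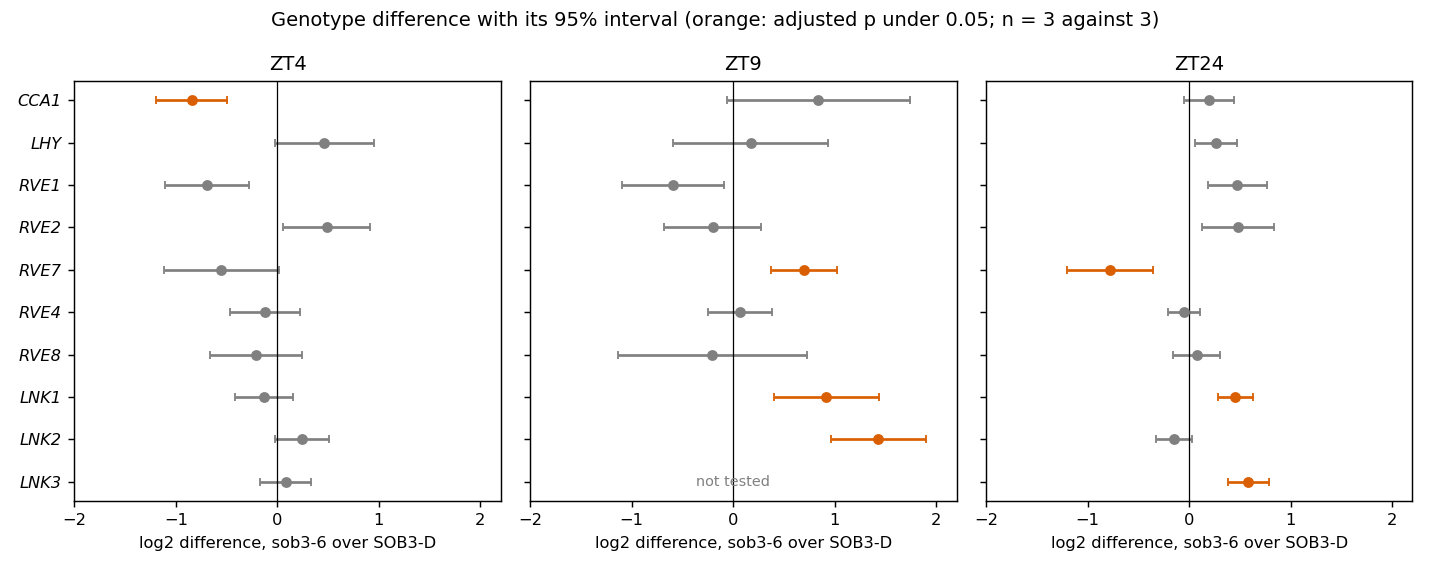
Genotype difference of each of the 10 genes at each time, as log2 of sob3-6 over SOB3-D (points) with its 95% interval (bars) from 3 libraries against 3; orange marks an adjusted p under 0.05. CCA1 is called at ZT4 at -0.84, LNK2 at ZT9 at 1.43, LNK1 and LNK3 lie above 0 at ZT24, and RVE7 lies above 0 at ZT9 and below 0 at ZT24. LNK3 was not tested at ZT9.

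The rest of the clock was described by a list of 20 genes. At ZT4 4.29% of all nuclear genes were called higher in sob3-6 and 2.46% lower. Of the 20, limma called none higher, also at an unadjusted p under 0.05, and 3 lower. These were ELF4 (-1.07 ± 0.17, adjusted p = 0.00813), an evening complex subunit, PRR9 (-0.58 ± 0.13, adjusted p = 0.0351), the earliest of the pseudo-response regulators, and GI (-0.37 ± 0.09, adjusted p = 0.0448), which with ZTL and FKF1 controls protein turnover in the clock and flowering. At ZT9 6 of the 20 were higher and ELF4 was lower (-0.41 ± 0.10, adjusted p = 0.0274), against 6.00% and 4.03% of all nuclear genes. At ZT24 CHE, a TCP repressor of CCA1, was lower (-0.43 ± 0.09, adjusted p = 0.0179) and the other 19 were not called. There 1.85% of all nuclear genes were called lower and 4.91% higher. The median difference over the 20 was -0.15, 0.20 and 0.04 at the 3 times.

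The 6 genes higher in sob3-6 at ZT9 were GI, LNK4, PRR5, PRR3, PRR7 and FKF1. GI was 60.2, 68.6 and 39.3 CPM in SOB3-D and 130.5, 140.0 and 92.1 CPM in sob3-6 at that time, a log2 difference of 1.12 ± 0.21 (adjusted p = 0.0140). LNK4, the last of the LNK genes, was 1.12, 0.98 and 1.16 CPM in SOB3-D and 2.34, 3.26 and 3.00 CPM in sob3-6 (1.08 ± 0.23, adjusted p = 0.0188). PRR5, which RVE8 and LNK proteins activate, was 53.3, 50.7 and 46.7 CPM against 85.5, 85.4 and 79.7 CPM (0.73 ± 0.09, adjusted p = 0.00180). In all 3 genes every sob3-6 library was above every SOB3-D library. PRR3, PRR7 and FKF1 differed by 0.63, 0.55 and 0.47. TOC1, named above with PRR5 as an example of a target, was 238 to 265 CPM in SOB3-D and 253 to 280.2 CPM in sob3-6. Its difference was 0.04 ± 0.09 (adjusted p = 0.810).

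The growth of the difference from ZT4 to ZT9 that LNK1 and LNK2 showed was also called for GI (1.48 ± 0.28, adjusted p = 0.00896), LNK4 (1.15 ± 0.17, adjusted p = 0.00159) and PRR7 (0.76 ± 0.16, adjusted p = 0.0259). These were the only ones of the 20, against 1.04% of all nuclear genes in that direction. With LNK4, 3 of the 4 LNK genes were called higher in sob3-6 at ZT9, against 6.00% of all nuclear genes. The exception, LNK3, fell under the filter. With no filter it was not called (0.67, adjusted p = 0.199), while the fit of all 18 libraries called it (adjusted p = 0.0278). Without SOB3-D ZT9 replicate 1 the ZT9 count of the 20 genes was 4 in place of 7, and without sob3-6 ZT9 replicate 2 it was 1. The ZT4 count of 3 was 1 in the fit of all 18 libraries and on leaving out any library of that time except sob3-6 replicate 3. The ZT24 count of 1 was 0 without SOB3-D replicate 1 or 3 or sob3-6 replicate 1 or 2, 2 without sob3-6 replicate 3, and 3 with the replicate block.

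**Figure D4:**
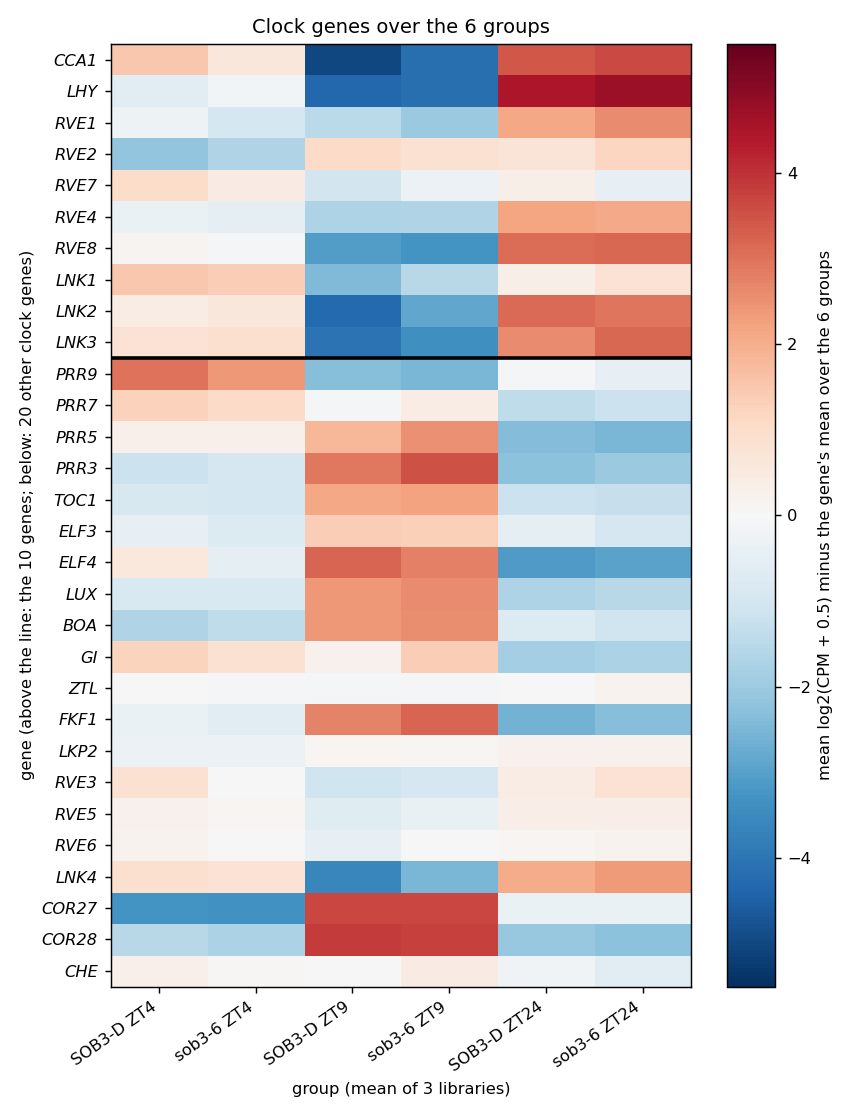
Mean log2(CPM + 0.5) of each clock gene in each of the 6 groups (columns, 3 libraries each) minus the gene's mean over the groups; red is above and blue below that mean, with the 10 genes above the black line and the 20 other clock genes below it. LHY, CCA1 and LNK2 are blue at ZT9 and red at ZT24 in both lines, TOC1, FKF1 and COR27 are red at ZT9, and LNK2, LNK4 and GI are higher in the sob3-6 column at ZT9.

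Cell type markers moved with genotype too, with calls at ZT9 and ZT24. In whole seedlings fewer cells of a type and less RNA per cell cannot be told apart. At ZT9 the 2 epidermis markers were both called higher in sob3-6, with a summed level of 321 to 377 CPM against 226 to 259 CPM in SOB3-D. The 6 root markers summed to 1847 to 2153 CPM in sob3-6 and 2984 to 3056 CPM in SOB3-D. Only PYK10 was called lower (-0.61, adjusted p = 0.0172). EXPA7 and WOX5 differed by -0.40 and -0.67, and SCR, SHR and COBL9 by 0.12, 0.13 and 0.11, none of them called. The sum therefore does not show a fall of every root marker. Of 5 green shoot markers 2 were called higher, LHCB2.1 by 1.92 (adjusted p = 2.82e-05) and LHCA1 by 0.69 (adjusted p = 0.0199). The green shoot sums overlapped at 31466 to 39395 and 27622 to 35456 CPM. RBCS1A, in that list, went the other way without a call (-0.46, adjusted p = 0.232). Of 3 stomatal lineage markers and 2 shoot meristem and leaf markers 1 each was called higher. SPCH, a stomatal lineage marker, went the other way without a call (-0.50, adjusted p = 0.193). No marker was called at ZT4, where 3 were higher at an unadjusted p under 0.05. The root sums were apart there too, at 2256 to 2403 CPM in sob3-6 and 2484 to 2760 CPM in SOB3-D. So were the epidermis sums, at 392 to 422 and 374 to 390 CPM. Of the root markers at ZT4, PYK10, SCR, COBL9 and WOX5 differed by -0.17, -0.19, -0.02 and -0.38. SHR and EXPA7 went the other way, by 0.01 and 0.08. At ZT24 1 epidermis and 1 stomatal marker were called higher and 1 root marker lower. The root sums were then 1938 to 2105 CPM in sob3-6 and 2430.5 to 2914 CPM in SOB3-D. The root marker called was PYK10 (-0.41, adjusted p = 0.0307). WOX5 differed by -0.67, SHR, EXPA7 and COBL9 by -0.08, -0.10 and -0.08, and SCR by 0.02, none of them called. The stomatal sums were 59.1 to 71.0 and 31.6 to 38.9 CPM, and the green shoot sums 40252 to 41709.5 and 45209 to 46373 CPM. Of the stomatal markers KAT1 was called (1.52, adjusted p = 0.000237). SPCH and FAMA went the other way without a call (-0.25 and -0.11). No green shoot marker was called at ZT24, and RBCS1A went against the sum (0.21). These sums therefore do not show a shift of every marker in their lists. The shoot meristem and leaf sum was higher in every sob3-6 library than in every SOB3-D library at each time. Of the 3 seed storage markers none was called at any time, with sums from 25.9 to 682 CPM, the highest in a sob3-6 library at ZT4. No marker in any list was at 0 in any library. The part of these shifts in the differences of the LNK genes was not tested.

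Genes whose pattern over the 18 libraries was most like that of CCA1 were ranked among 15993 nuclear genes by the root mean square difference in centred log2(CPM + 0.5). LNK3 had rank 1 (0.80) and LNK2 rank 2 (0.89), with RVE8 at rank 4 (1.19) and LHY at rank 5 (1.21). RVE1 ranked 28, RVE4 31, LNK1 54, RVE7 729 and RVE2 15517. Outside the clock lists the nearest were STH (1.14, rank 3), a B-box protein gene, the CONSTANS-like genes COL1 (1.29) and COL2 (1.34), AT1G64500 (1.40) and BETA-OHASE 2 (1.43), a beta-carotene hydroxylase gene. Mean levels of STH at ZT4 were 41.0 CPM in SOB3-D and 23.2 CPM in sob3-6, and at ZT24 60.2 and 64.4 CPM. All ranks come from the same libraries and reflect mainly the times of harvest.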

How the data were processed

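The authors sequenced messenger RNA from 18 pools of seedlings and deposited 1 table per time point. Reads were mapped by the authors with Bowtie to TAIR10 cDNA sequences, all best hits of a read were kept, and the count per transcript was divided by mapped reads. The deposited values are called CPM, but since a read can count on several transcripts they sum to 1546178 to 1573550 per library and are treated as a signal. Recovered reads were whole for 100% of non-zero values (tolerance 0.02).

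A gene was represented by its transcript with the highest mean. Values were compared as log2(CPM + 0.5) with limma 3.58.1 (mean-variance trend, two-sided, Benjamini-Hochberg adjustment over all transcripts whose mean reached 0.5 CPM), on the 6 libraries of a time for genotype and on all 18 for time contrasts and interactions. The fits were tested on simulated counts. Alternatives used edgeR 4.0.16 and DESeq2 1.42.0 on recovered reads, TMM scaling, other pseudocounts (0.1 and 1 CPM) and filters (none, 5 CPM), 1 transcript per gene, a replicate block, and leaving out each library. Genotypes of a replicate set came from the same plates, and same-numbered libraries of a time point deviated together (r = 0.125 to 0.425 over 9 pairs, 15994 genes), so the number pairs genotypes within a time. The main genotype fits left this pairing out, and the replicate block is the alternative that keeps it. Gene positions and promoters were taken from TAIR10.1 by locus identifier, and transcripts there may start elsewhere than in the TAIR10 cDNA set. Organelle transcripts took 0.861% to 1.67% of the signal. All 10 members and the 20 other clock genes are named by list, and members and lists were chosen with earlier results of these data known.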

Additional observations from a re-analysis of the deposited data

Results flagged for a closer look

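For 5 of the members, 7 interaction tests, each asking whether the difference between sob3-6 and SOB3-D changed between 2 times, passed an adjusted p under 0.05. From ZT4 to ZT9 the log2 difference changed by 1.68 for CCA1, 1.19 for LNK2 and 1.05 for LNK1. From ZT9 to ZT24 it changed by -1.58 for LNK2, -1.48 for RVE7 and 1.06 for RVE1, and from ZT4 to ZT24 by 1.17 for RVE1. The 3 contrasts share libraries, so the entries of LNK2 and of RVE1 are not independent of each other. Groups of 3 libraries were not screened for outlying samples.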

How the results depend on the processing

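No call changed direction in any alternative. The member counts of the 6 time contrasts stayed within 1.5 times of their values. At ZT4 the count of 1 became 2 with DESeq2, with edgeR's exact test, with the replicate block and with the fit of all 18 libraries, and ranged from 0 to 3 on leaving out a library. It was 0 without SOB3-D ZT4 replicate 3 and 3 without sob3-6 ZT4 replicate 3. At ZT9 the count of 3 became 5 in the fit of 18 libraries, where CCA1, RVE1 and LNK3 were gained and RVE7 was lost, and ranged from 1 to 4 on leaving out a library. It was 1 without SOB3-D replicate 1, SOB3-D replicate 3 or sob3-6 replicate 2. At ZT24 the count of 3 became 6 with the replicate block and 0 in the fit of 18 libraries. For the change from ZT4 to ZT9 the count of 3 ranged from 1 to 4 on leaving out a library, 1 being without SOB3-D ZT4 replicate 3. For ZT9 to ZT24 the count of 3 became 1 with edgeR's quasi-likelihood test. For ZT4 to ZT24 the count of 1 became 2 with DESeq2, with the replicate block, with edgeR's quasi-likelihood test and at a pseudocount of 1 CPM, and fell to 0 on leaving out any of 6 libraries, those named for RVE1 above. Among single members 24 fits gained and 58 lost a call, and 1995 did not change it.

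The replicate block changed no member call beyond those given above. Across times of a line, same-numbered libraries correlated positively in 16 of 18 pairs and above 0.1 in 14 (r = -0.104 to 0.486), against -0.434 to 0.330 over 36 pairs of different numbers, so they tended to deviate together, but not in every pair, and the number was not taken to pair the times. The block left 10, 9 and 10 members called in SOB3-D and 10, 8 and 10 in sob3-6. The split over all genes differed between fits, and DESeq2 differs from the main fit in its model as well as its scaling. At ZT4 881 were called higher and 505 lower, against 722 and 667 with DESeq2 and 690 and 575 with TMM, and at ZT9 1227 and 824, against 940 and 949 with DESeq2. Levels at ZT9 of CCA1, LHY, RVE8 and LNK3 rest on 6 to 27 reads per group, which limits any genotype difference there.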
